A study of Mus musculus with 32 samples.

Results

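The genes that give lymphatic endothelial cells their identity were followed across the RNA-seq libraries of a study of transcranial near-infrared light in a mouse model of Alzheimer's disease. The 10 genes Lyve1, Prox1, Flt4, Pdpn, Mmrn1, Reln, Ccl21a, Itga9, Nrp2 and Foxc2 were taken by symbol, and each matched 1 of the 22337 genes in both tables. Libraries came from sorted meningeal lymphatic endothelial cells (mLECs), from whole meninges and from the hippocampus (HPC), with 1 male mouse of 6 months per sample. There were 4 WT, 3 untreated 5xFAD and 3 light-treated 5xFAD samples for mLECs and again for meninges, and 4 of each for HPC. 5xFAD mice carry mutated human amyloid precursor protein and presenilin transgenes under the regulatory sequence of Thy1, a promoter of neurons, and WT mice carry none. Light-treated 5xFAD mice were illuminated through the scalp for 10 min, 3 times per week for 4 weeks, and the controls were anaesthetized and kept under indoor lighting instead. The mLECs were sorted by flow cytometry as living CD45- CD31+ PDPN+ cells, so Pdpn, which encodes the PDPN antigen, took part in choosing these cells.

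Lymphatic endothelium forms by reprogramming of venous endothelium, and the transcription factor Prox1 starts and maintains this state. Prox1 and the receptor Flt4 (VEGFR-3), which binds the growth factor VEGF-C, keep each other active, while Nrp2 is a co-receptor for the same ligand. The vessels take up fluid through Lyve1-rich initial segments, draw dendritic cells with the chemokine Ccl21 and close their valves with the help of Foxc2 and the integrin Itga9. Several of these genes also work elsewhere: Prox1 in granule neurons of the dentate gyrus, Reln in interneurons, Pdpn in fibroblasts and choroid plexus, and Lyve1 in resident macrophages.

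Ccl21a has near-identical copies in the mouse genome, and the sequence shows why its values are uncertain. Ccl21a lies at chr4:42772860-42773993 on the minus strand (GRCm38, GENCODE vM21) and the copy named Ccl21d in the tables at chr4:41903610-41904743 on the plus strand. Their coding sequences of 402 bases were 99.5% identical. The stretch that holds both differing bases, from coding position 64 to 214, is printed 5′ to 3′ from the GENCODE transcripts, with the differing bases in capitals.
Ccl21a: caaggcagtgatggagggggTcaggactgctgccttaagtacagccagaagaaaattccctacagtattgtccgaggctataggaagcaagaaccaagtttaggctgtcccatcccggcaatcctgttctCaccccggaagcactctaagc
Ccl21d: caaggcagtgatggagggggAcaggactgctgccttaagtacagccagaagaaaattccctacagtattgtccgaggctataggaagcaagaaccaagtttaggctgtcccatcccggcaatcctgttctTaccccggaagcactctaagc
Counted from 1 at the A of the start codon, the changes from Ccl21a to Ccl21d were T84A and C194T. Reads that cover neither base cannot be assigned to a copy by the coding sequence. In the 8 mLEC libraries in which the copies were abundant, Ccl21a received between 52.0% and 77.6% of their counts, and in the 10 meninges libraries between 56.7% and 79.2%. The third copy, Ccl21b, received none in these. The values of Ccl21a below are therefore those of a family of shared reads, and the sum over the copies is given where it matters.

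A library held 14231415 to 24207326 counts in mLECs, 6601143 to 14708202 in meninges and 13952825 to 23856476 in HPC. An mLEC library detected 5998 to 9020 genes at all, and a meninges library 17427 to 19769. The spread among replicates, as edgeR's coefficient of biological variation, was 1.89 in mLECs, 0.350 in meninges and 0.198 in HPC. Replicates therefore differed far more among sorted cells than among tissues.

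The mLEC libraries did not all carry the expected genes. In the WT group, replicates 2 and 4 had a Lyve1 and a Pdpn value of 0, and Ccl21a stood at 3.54 FPKM (fragments scaled by transcript length and library size) in replicate 2 and at 0 in replicate 4. Replicate 2 had an Mmrn1 value of 0.06 and also held Mbp, a myelin gene, at 254.8 FPKM and P2ry12, a microglial gene, at 42.5 FPKM, with both below 1 FPKM in the 9 other libraries. In untreated replicate 4 Hba-a1, a haemoglobin gene, reached 4235 FPKM. Of 13 genes listed for blood endothelium, 12 exceeded 3 counts in every mLEC library. Vwf lay at 103.8 to 850.3 FPKM and Plvap at 496.2 to 5181 FPKM. The list is not specific to blood vessels. Its Pecam1 encodes the CD31 antigen of the sort, and Cdh5, Cldn5, Kdr and Tek also stand in lymphatic lists used below. The summed FPKM of this list was 6388 to 10583 in WT, 5903 to 7376 in untreated and 5193 to 8076 in light-treated libraries. Ptprc, the gene of the CD45 antigen, was at 0 in all 10 libraries, as were the 5 T and NK cell markers. The part of blood endothelial RNA in the comparisons below was not tested. Differences from WT mLECs are also given without WT replicates 2 and 4, for genes with a printed fold change and for the member set. These 2 libraries were set apart by their Lyve1, Pdpn and Ccl21a values. Results without them are therefore no independent support for these genes.

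**Figure D1:**
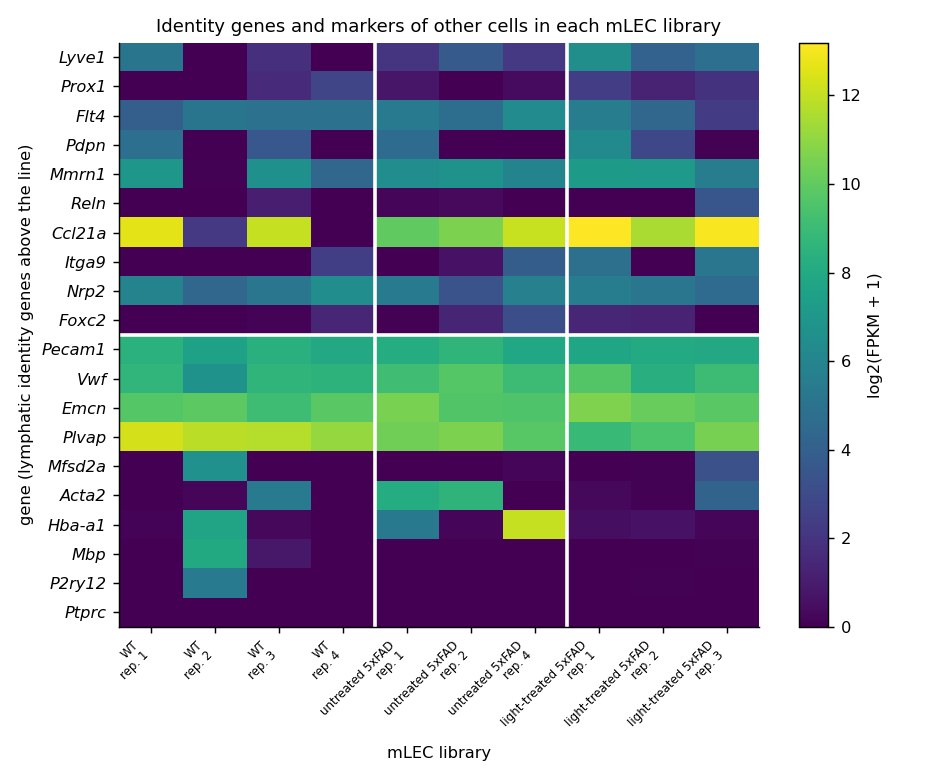
Heat map of log2(FPKM + 1) in each of the 10 mLEC libraries (columns, grouped as WT, untreated 5xFAD and light-treated 5xFAD), with the 10 lymphatic identity genes above the horizontal white line and genes of blood endothelium, smooth muscle, red cells, myelin, microglia and leukocytes below it. Vwf, Emcn and Pecam1, the gene of the sorted CD31 antigen, are bright in every column, while WT replicates 2 and 4 are dark for Lyve1 and Pdpn.

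In mLECs the 10 genes spanned a wide range of levels, and only 3 of them exceeded 3 counts in all 10 libraries: Flt4, Nrp2 and Mmrn1. On the FPKM scale the medians over the 10 libraries were 3552 for Ccl21a, 93.3 for Mmrn1, 38.2 for Nrp2, 30.2 for Flt4, 7.88 for Lyve1, 3.12 for Pdpn, 1.14 for Prox1, 0.785 for Foxc2, 0.295 for Itga9 and 0 for Reln. Ccl21a was above Mmrn1 in 9 of 10 libraries and Mmrn1 above Nrp2 in 8 of 10, whereas Nrp2 and Flt4 exchanged places, with Nrp2 the higher in 5. Neighbours further down the order also overlapped: Lyve1 exceeded Pdpn in 6 libraries, Pdpn exceeded Prox1 in 5, Prox1 exceeded Foxc2 in 6 and Foxc2 exceeded Itga9 in 5. Per library between 4 and 9 of the 10 genes had more than 3 counts, with 4 in WT replicate 2 and 8 or 9 in the 6 libraries of 5xFAD mice. The receptor and the co-receptor of VEGF-C were thus among the few members found in every sorted library. That included WT replicates 2 and 4, where Lyve1 and Pdpn were at 0, and which cells gave these counts was not tested.

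Among the transcription factors, Prox1 (chr1:190118035-190170714, minus strand) was sparse in mLECs. Its FPKM was 0, 0, 1.95 and 5.71 in WT, 0.75, 0 and 0.29 in untreated 5xFAD and 4.2, 1.53 and 2.88 in light-treated 5xFAD libraries. All 3 light-treated libraries exceeded all 3 untreated ones, while the WT libraries spanned both groups. The log2 fold change of light-treated over untreated was 2.68 ± 3.40 (SE, n = 3 and 3, edgeR adjusted p = 1), an error larger than the difference. Foxc2 (chr8:121116171-121118895, plus strand), which directs the formation of lymphatic valves, lay at 0 to 1.68 FPKM in WT, at 0.06, 1.58 and 8.0 in untreated and at 1.71, 1.48 and 0 in light-treated libraries, and the groups overlapped.

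Of the receptors, Lyve1 (chr7:110850607-110863239, minus strand), the hyaluronan receptor that marks initial lymphatics, separated the 5xFAD groups. Its FPKM was 89.2, 16.5 and 27.2 in light-treated, 2.96, 12.2 and 3.60 in untreated 5xFAD and 34.0, 0, 2.56 and 0 in WT libraries. The lowest light-treated library was above the highest untreated library, and WT replicate 1 lay among the light-treated ones. The log2 fold change of light-treated over untreated was 2.80 ± 2.52 (SE, edgeR adjusted p = 1), and with WT replicates 2 and 4 left out of the fit it was 2.79 ± 1.48 (adjusted p = 1.00). Between untreated 5xFAD and WT the edgeR difference of Lyve1 was -0.87 ± 2.25 on the log2 scale, but the difference of mean log2(FPKM + 1) was 0.89. The sign thus depended on the scale, in a WT group that held 34.0 FPKM in replicate 1 and 0 in replicates 2 and 4. Without WT replicates 2 and 4 the edgeR value was -1.85 ± 1.54.

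Flt4 (chr11:49609263-49652739, plus strand) was present in every mLEC library. It stood at 15.1, 34.4, 30.1 and 30.3 FPKM in WT, at 42.0, 26.5 and 81.6 in untreated and at 45.7, 19.3 and 3.83 in light-treated libraries. The groups overlapped, and light-treated replicate 3 was the lowest of all. The log2 fold change was -1.12 ± 0.85 (edgeR adjusted p = 1) for light-treated against untreated and 0.73 ± 0.78 (adjusted p = 1.00) for untreated against WT, or 0.98 ± 0.97 without WT replicates 2 and 4. Nrp2 (chr1:62703285-62818695, plus strand) lay between 9.45 and 88.1 FPKM, with a difference of light-treated from untreated of 0.04 ± 0.77 on the log2 scale. Itga9 (chr9:118606690-118901003, plus strand), the integrin chain that binds tenascin and fibronectin in valves, varied widely within groups. It was at 27.8, 0.02 and 35.5 FPKM in light-treated and at 0, 0.57 and 13.7 in untreated libraries. In WT it was at 0 in 3 of 4 libraries and at 4.41 in replicate 4.

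Among the secreted and surface products, Ccl21a was the most abundant of the 10 genes. Its FPKM was 9356, 2896 and 8664 in light-treated, 997.9, 1535 and 4344 in untreated and 6534, 3.54, 4208 and 0 in WT libraries. Of the light-treated libraries 2 exceeded every untreated one. The log2 fold change of light-treated over untreated was 1.57 ± 1.96 (SE, edgeR adjusted p = 1). With WT replicates 2 and 4 left out of the fit the same difference was 1.57 ± 0.57 (edgeR adjusted p = 1.00). Untreated against WT was then -1.44 ± 0.61 (edgeR adjusted p = 1.00), in place of -0.46 ± 1.81. Both had an unadjusted p below 0.05. Those 2 libraries were left out for low Ccl21a among other genes. The smaller SE and p follow from that choice and are no support. With no filter on low values, Ccl21a alone among the 10 genes passed the thresholds for light-treated against untreated, where 15 of 13443 genes were called. It was at 1.58 ± 0.31 (edgeR adjusted p = 0.0010), with an SE far smaller than the 1.96 of the filtered fit. The summed FPKM of the copies was 14380, 3733 and 12310 in light-treated and 1555, 2487 and 6090 in untreated libraries, which overlapped as well.

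Mmrn1 (chr6:60924976-60989378, plus strand), a secreted protein of lymphatic endothelium and platelets, lay at 146.0, 138.9 and 46.6 FPKM in light-treated, at 88.3, 109.4 and 60.4 in untreated and at 126.3, 0.06, 98.4 and 19.7 in WT libraries. The 2 groups of 5xFAD mice overlapped, with a log2 difference of 0.43 ± 1.31. Against WT, untreated 5xFAD differed by 0.27 ± 1.22, or by -0.61 ± 0.58 without WT replicates 2 and 4, so that those libraries set the sign. Pdpn (chr4:143267431-143299564, minus strand), used in the sort, exceeded 3 counts in 5 of 10 libraries, with 26.7, 0, 11.2 and 0 FPKM in WT, 23.5, 0 and 0 in untreated and 77.6, 6.20 and 0.04 in light-treated libraries. Each group thus held libraries with the transcript and libraries with at most 3 counts of it. Reln (chr5:21884454-22344702, minus strand), an extracellular signal first known from neuronal migration, exceeded 1 FPKM in WT replicate 3 at 1.14 and in light-treated replicate 3 at 10.5, and it was not tested in mLECs.

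**Figure D2:**
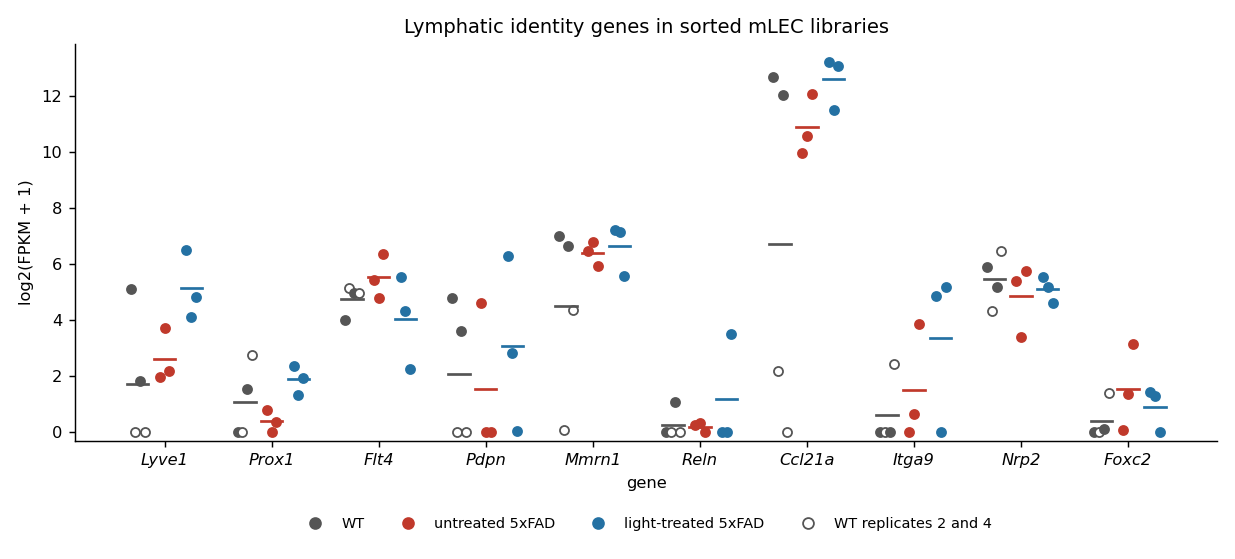
log2(FPKM + 1) of each lymphatic identity gene (x axis) in the 10 mLEC libraries, 1 point per library, with a line at each group mean and open points for WT replicates 2 and 4. Lyve1 and Prox1 have all 3 light-treated points above all 3 untreated points, and the other 8 genes overlap between these groups.

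Taken over the set, 0 of the 9 genes tested in mLECs passed an adjusted p of 0.05 and a 2-fold change between light-treated and untreated 5xFAD mice. Over all 8188 genes tested the share was 0.0%, and 4.01% had an unadjusted p below 0.05, again 0 of the 9. DESeq2 called 338 of the 8188 genes and 0 of the 9. The groups did not overlap for 2 of the 10 genes, Lyve1 and Prox1, against 10.1% of all genes tested. These are also the genes that the study chose to plot from these samples, so their direction is no independent evidence. By the exact permutation test on mean log2(FPKM + 1), two-sided, both reached p = 0.10, the smallest that 3 against 3 samples allow, with differences of 2.51 for Lyve1 and 1.5 for Prox1 (adjusted over 30 tests, p = 0.735). The median log2 fold change over the 9 genes was 1.57, with 7 above 0, beside 0.03 over all genes tested. Without WT replicates 2 and 4 in the fit 0 of 9 were called and 1 of 9, Ccl21a, had an unadjusted p below 0.05, against 4.22% of 7607 genes. Ccl21a was among the genes by which these 2 libraries were set apart, so this count is no support. Markers of other cells also differed between these libraries. All 5 pericyte and smooth muscle genes tested were lower in light-treated mLECs, with a median log2 fold change of -3.50. The 8 listed genes summed to 13.4 to 62.9 FPKM in light-treated and 29.0 to 625.3 in untreated libraries. Of these 8, 2 exceeded 3 counts in each light-treated library, against 6, 6 and 2 in the untreated ones. The 5 tested could thus pass the filter mainly through other libraries, so their direction is no support. The 3 erythroid genes tested were lower too, each with an unadjusted p below 0.05. The 6 of that list summed to 0.31 to 1.01 in light-treated and 0.46 to 12368 (median 46.7) in untreated libraries. The 3 genes could pass the filter almost only through libraries of the other groups, so their direction and p are no support. The part of these cells in the values of the 9 genes was not tested.

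Between untreated 5xFAD and WT mLECs, 0 of 9 genes were called, against 0.0% of all genes, and 0 of 9 had an unadjusted p below 0.05, against 3.81%. DESeq2 called 184 genes and 0 of the 9. No member had groups apart, against 6.23% of all genes tested. The median over the 9 genes was -0.46, with 4 above 0, beside -0.04 over all. Without WT replicates 2 and 4 it was -0.68, with 3 above 0, beside 0.17 over all. There 0 were called, with 1 of 9 (Ccl21a) at an unadjusted p below 0.05, against 3.59%. Those libraries were left out for their low members, so this median and count are no support. For light-treated 5xFAD against WT the calls were again 0 of 9, against 0.0122% of all genes, with 0 of 9 at an unadjusted p below 0.05, against 6.72%, and a median of 1.11, which was 0.25 without WT replicates 2 and 4. These comparisons share the same untreated or WT libraries and do not repeat each other.

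In whole meninges all 10 genes had counts in all 10 libraries, and the order of levels differed from that in mLECs. Median FPKM was 89.2 for Ccl21a, 87.7 for Pdpn, 11.1 for Foxc2, 9.65 for Nrp2, 5.15 for Lyve1, 1.67 for Mmrn1, 1.20 for Flt4, 1.16 for Itga9, 0.580 for Reln and 0.385 for Prox1. Pdpn exceeded Foxc2 in all 10 libraries and Lyve1 exceeded Mmrn1 in all 10. By contrast Ccl21a and Pdpn, Foxc2 and Nrp2, and Mmrn1 and Flt4 overlapped as neighbours. The mLEC and tissue tables were made separately, so their levels can be set side by side but not tested. The mLEC median was 56.0 times the meninges median for Mmrn1, 39.8 times for Ccl21a, 25.2 times for Flt4, 3.96 times for Nrp2, 2.96 times for Prox1 and 1.53 times for Lyve1. It was 0.0356 times for Pdpn and 0.0706 times for Foxc2, genes that other meningeal cells also express, and 0.254 times for Itga9, while Reln had a median of 0 in mLECs. In bulk tissue, fewer cells of a type and less RNA per cell cannot be told apart.

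**Figure D3:**
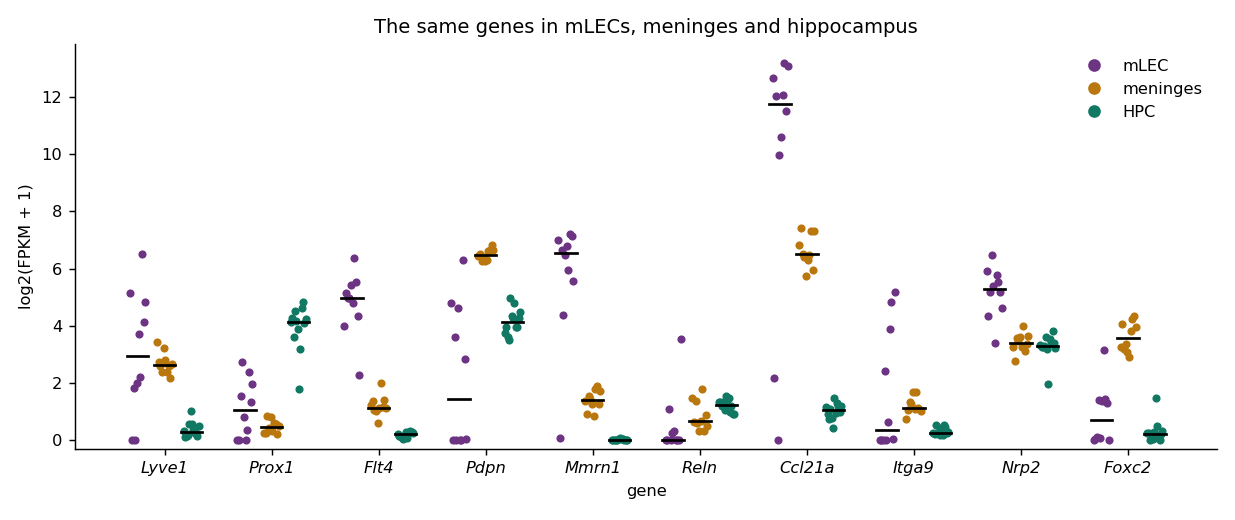
log2(FPKM + 1) of each gene (x axis) in the 10 mLEC, 10 meninges and 12 HPC libraries, 1 point per library, with a black line at the median. Mmrn1, Ccl21a and Flt4 are highest in mLECs, Pdpn and Foxc2 in meninges, and Prox1 in HPC.

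In light-treated meninges Foxc2 and Pdpn were higher than in every untreated library, by amounts that did not pass the adjusted test. Foxc2 lay at 18.0, 19.3 and 14.4 FPKM in light-treated, at 7.58, 6.45 and 13.04 in untreated and at 8.61, 15.9, 8.04 and 9.19 in WT meninges. All 3 light-treated libraries exceeded all 3 untreated ones, and WT replicate 2 fell within the light-treated range. The log2 fold change was 0.92 ± 0.33 (SE, edgeR adjusted p = 0.315), and against WT it was 0.71 ± 0.31 (adjusted p = 0.276). Pdpn stood at 99.3, 111.8 and 98.7 FPKM in light-treated, at 75.9, 77.5 and 96.0 in untreated and at 86.0, 89.5, 76.5 and 83.1 in WT meninges. The light-treated libraries exceeded all 7 others, with a log2 fold change over untreated of 0.31 ± 0.21 (edgeR adjusted p = 0.535). Of all genes tested, 20.8% had light-treated and untreated groups apart, and the share apart from all 7 was not counted. These separations are therefore no result about Foxc2 or Pdpn.

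Fibroblast markers overlapped between these groups. The summed FPKM of 10 fibroblast genes was 9936 to 15545 in light-treated and 8120 to 15435 in untreated meninges, and of 3 choroid plexus genes 28667 to 49055 and 25922 to 33379. Bone and cartilage genes summed to 112.4 to 2232 and 155.8 to 329.5, with light-treated replicate 4 the highest. B cell genes, 4 in number, summed to 33.7 to 61.9 in light-treated, 23.6 to 24.4 in untreated and 16.8 to 32.1 in WT meninges, without overlap between light-treated libraries and the rest. The part of these cells in the Foxc2 and Pdpn values was not tested.

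Among the receptors in meninges, Lyve1 lay at 5.02, 3.48 and 5.27 FPKM in light-treated, at 8.38, 6.05 and 4.17 in untreated and at 9.71, 5.64, 4.99 and 4.18 in WT libraries. The log2 difference of light-treated from untreated was -0.41 ± 0.36 (edgeR adjusted p = 0.638), opposite in sign to the 2.80 of mLECs, and the difference between the tissues was not tested. Flt4 differed by -0.24 ± 0.49 and Nrp2 by -0.29 ± 0.28, each less than the spread among libraries. Itga9 stood at 1.18, 1.07 and 1.02 FPKM in light-treated and at 2.25, 1.14 and 2.18 in untreated meninges, a difference of -0.76 ± 0.38 (edgeR adjusted p = 0.420). Prox1 stayed between 0.15 and 0.78 FPKM, with 17 to 58 counts per library, and was below the filter. With no filter its difference was -0.29 ± 0.70.

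Of the secreted products in meninges, Ccl21a lay at 159.0, 61.4 and 157.7 FPKM in light-treated, at 52.3, 77.5 and 88.3 in untreated and at 113.3, 169.8, 90.0 and 84.7 in WT libraries. Light-treated replicate 2 fell among the untreated libraries. The log2 fold change over untreated was 0.82 ± 0.40 (edgeR adjusted p = 0.409), and untreated against WT it was -0.65 ± 0.38 (adjusted p = 0.987). The summed FPKM of the copies was 235.4, 108.1 and 252.0 in light-treated and 85.6, 97.8 and 132.6 in untreated meninges. Mmrn1 differed by 0.50 ± 0.46 and Reln by -1.18 ± 0.72 between light-treated and untreated meninges, both within the spread of the groups.

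**Figure D4:**
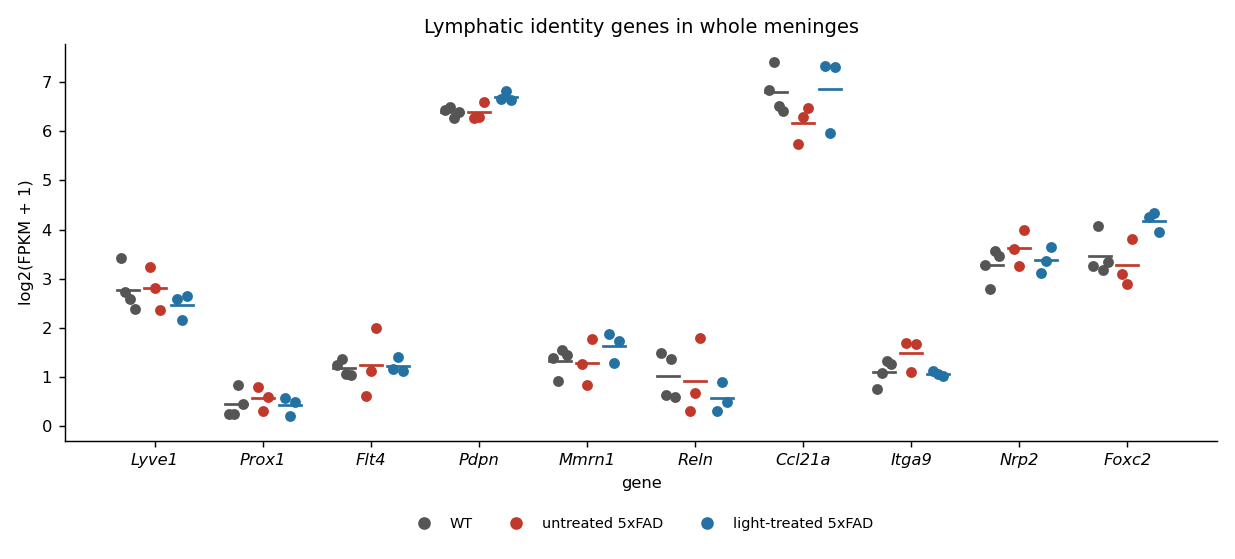
log2(FPKM + 1) of each lymphatic identity gene (x axis) in the 10 meninges libraries, 1 point per library, with a line at each group mean. Foxc2 and Pdpn have the 3 light-treated points above the 3 untreated points, and Lyve1, Flt4 and Prox1 overlap between the groups.

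In meninges, too, 0 of the 9 genes tested passed both thresholds between light-treated and untreated mice, against 0.014% of 14318 genes. An unadjusted p below 0.05 was found for 1 of the 9, Foxc2, against 12.7% of all genes, and the groups were apart for 2 of the 10, against 20.8%. These shares lie near the background of all genes. Between untreated 5xFAD and WT meninges 0 of 9 were called, against 0.0%, 0 of 9 had an unadjusted p below 0.05, against 4.0%, and 0 of 10 had groups apart, against 4.85%. For light-treated against WT meninges 0 of 9 were called, against 0.014%, and 1 of 9 had an unadjusted p below 0.05, against 16.5%. DESeq2 called 0 of the 9 genes in each of these comparisons.

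**Figure D5:**
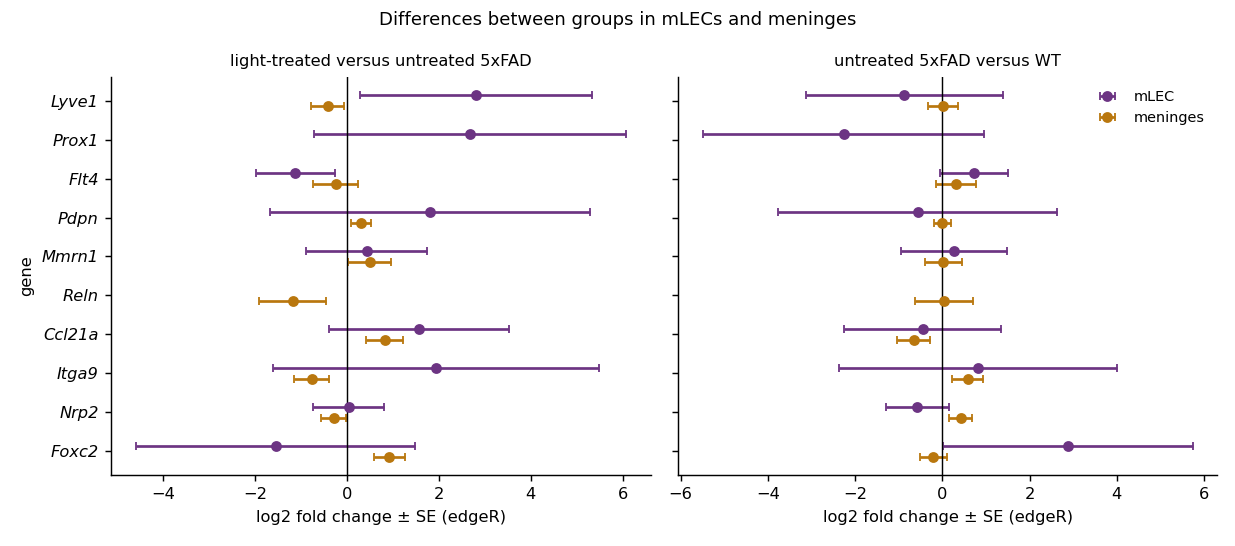
log2 fold change with its SE from the edgeR fit (x axis) for each lymphatic identity gene (y axis), in mLECs and in meninges, for light-treated against untreated 5xFAD mice (left) and untreated 5xFAD against WT mice (right); genes below the filter have no point. The bars of mLECs are longer than those of meninges for each gene tested in both, and Lyve1 lies at 2.80 in mLECs and at -0.41 in meninges in the left panel.

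The hippocampus served as a background that holds no lymphatic vessels. Flt4 at up to 0.25 FPKM, Mmrn1 at up to 0.06 and Itga9 at up to 0.46 stayed below 1 FPKM in all 12 libraries, and Lyve1 and Foxc2 passed 1 FPKM in 1 library each, an untreated 5xFAD one. Prox1 was the highest of the 10 genes here, with a median of 16.7 FPKM, followed by Pdpn at 16.5 and Nrp2 at 8.89. With no filter on low values, which lets all 10 genes enter, 8 of 10 were called between WT meninges and WT HPC, against 45.1% of 20929 genes, 7 higher in meninges and Prox1 lower. With the filter, Lyve1, Flt4 and Foxc2 entered only through the meninges libraries and Prox1 only through those of HPC, so the count among those that passed, where 48.6% of 13614 genes were called and 72.8% had an unadjusted p below 0.05, is no measure of the set. In the filtered fit, on the log2 scale Ccl21a was higher in meninges by 6.81 ± 0.32, Foxc2 by 6.49 ± 0.55, Lyve1 by 5.24 ± 0.41, Flt4 by 3.51 ± 0.33 and Pdpn by 2.77 ± 0.16, with edgeR adjusted p from 8.23e-08 for Ccl21a to 4.56e-06 for Flt4. Prox1 was lower in meninges, by -5.13 ± 0.43 (adjusted p = 2.25e-06), while Nrp2 (0.06 ± 0.19) and Reln (-0.44 ± 0.37) were not called. Without any 1 of the WT meninges libraries, only 3 samples remained and genes present in meninges alone could not pass. Mmrn1 and Itga9 were below the filter, with all 4 WT meninges libraries above all 4 WT HPC libraries. The share of all genes with these groups apart was not counted.

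Within HPC, Pdpn was the member that passed an adjusted p of 0.05 between untreated 5xFAD and WT mice. It lay at 10.3 to 14.4 FPKM in WT, at 18.4 to 30.1 in untreated and at 14.4 to 21.4 in light-treated 5xFAD mice. All untreated 5xFAD libraries exceeded all WT ones, with a log2 fold change of 0.99 ± 0.19 (edgeR adjusted p = 0.0051), just short of 2-fold, so that 0 of the 5 genes tested were called, against 4.28% of 12981 genes, and 1 of 5 had an unadjusted p below 0.05, against 24.0%. Leaving out untreated 5xFAD replicate 3, 2 or WT replicate 2 brought Pdpn past 2-fold, at 1.09 without untreated replicate 3. Light-treated against untreated, Pdpn differed by -0.47 ± 0.19 (edgeR adjusted p = 0.212). Prox1 stood at 16.8, 13.9, 2.43 and 8.06 FPKM in untreated and at 16.2 to 27.5 in light-treated HPC, a difference of 1.08 ± 0.39 (edgeR adjusted p = 0.172) that was 0.77 ± 0.28 without untreated replicate 3, the lowest library. Reln differed by -0.60 ± 0.17 (edgeR adjusted p = 0.112). Lyve1 was below the filter, at 0.09 to 0.26 FPKM in WT, 0.28 to 1.02 in untreated and 0.10 to 0.40 in light-treated HPC, and all untreated libraries exceeded all WT ones. The share of all HPC genes with groups apart was not counted, so the separation of Lyve1 and Pdpn is no result about these members. With no filter the log2 fold change of Lyve1 in untreated 5xFAD over WT was 1.85 ± 0.53 (edgeR adjusted p = 0.0480), where 682 of 20292 genes were called.

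Between light-treated and untreated HPC 0 of the 5 genes tested were called, against 0.27% of all genes, and 3 of 5 had an unadjusted p below 0.05, against 18.3%. For light-treated 5xFAD against WT HPC the numbers were 0 of 5, against 2.36%, and 2 of 5, against 16.7%. The summed FPKM of genes of fibroblasts, cells that express Pdpn, was 394.6 to 933.5 in WT, 863.4 to 2789 in untreated and 513.7 to 799.6 in light-treated HPC, and of choroid plexus, which also expresses Pdpn, 35.7 to 2780, 203.6 to 3177 and 61.5 to 241.4. The sums for macrophages, some of which express Lyve1, were 231.6 to 269.8, 789.6 to 1640 and 608.9 to 1087. Their part in the Pdpn and Lyve1 values was not tested.

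Related genes of the lymphatic programme were described as lists. Of 12 genes of the VEGF-C axis, 7 were tested in mLECs and 11 in meninges, and 0 passed the thresholds between light-treated and untreated 5xFAD mice in either. The median log2 fold change was 0.17 in mLECs and 0.13 in meninges, beside 0.03 and 0.04 over all genes. Vegfc, the ligand of Flt4, was at 5.42 ± 0.836 FPKM (SD, n = 3) in light-treated and 3.61 ± 2.72 in untreated meninges, a log2 difference of 0.52 ± 0.47. Kdr, the other receptor of this ligand, which blood vessels also carry, was at 37.5 ± 22.6 FPKM in untreated 5xFAD and 155.4 ± 85.0 in WT mLECs, a log2 difference of -2.25 ± 0.68, or -1.97 ± 0.78 without WT replicates 2 and 4 (edgeR adjusted p = 1.00). Tek, the angiopoietin receptor, was at 6.75 ± 4.48 FPKM in untreated 5xFAD and 3.95 ± 0.685 in WT meninges (edgeR adjusted p = 0.987).

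Of 10 further lymphatic transcription factors, 10 were tested in mLECs and 9 in meninges, and 0 were called between the 5xFAD groups, with medians of -0.28 and -0.01. Hhex, an endothelial homeobox factor, differed in meninges by 1.02 ± 0.47 between light-treated and untreated mice (edgeR adjusted p = 0.391). It also differed by 1.04 ± 0.45 between untreated 5xFAD and WT meninges (edgeR adjusted p = 0.987).

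Of 15 valve and junction genes, 9 were tested in mLECs and 13 in meninges, with 0 called and medians of -0.23 and -0.04 between light-treated and untreated mice. Piezo1, a channel that senses flow, was at 1.23 FPKM in light-treated and 2.83 in untreated meninges on average (log2 difference -1.30 ± 0.34, edgeR adjusted p = 0.286), and Dchs1, a protocadherin of valve cells, differed by -0.87 ± 0.31 (adjusted p = 0.311). The gap junction gene Gja1 was at 127.1 FPKM in untreated 5xFAD and 278.0 in WT mLECs, a log2 difference of -1.34 ± 0.55, or -1.39 ± 0.62 without WT replicates 2 and 4 (edgeR adjusted p = 1.00). Of 15 other lymphatic endothelial genes, 10 and 13 were tested, 0 were called, and the medians were 0.28 in mLECs and -0.24 in meninges. Fxyd6 was at 0.0167 FPKM in light-treated and 39.6 ± 67.5 in untreated mLECs (edgeR adjusted p = 1), a mean whose SD exceeds it.

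Among 16 ligands, receptors and matrix partners of the 10 genes, 6 were tested in mLECs and 15 in meninges, and 0 were called between light-treated and untreated mice. The median was 0.25 in mLECs. In meninges 5 of the 15 had an unadjusted p below 0.05, all lower in light-treated mice, against 12.7% of all genes (1103 lower and 719 higher), and the median was -0.44. These were Sema3f, a ligand of Nrp2, at -1.50 ± 0.50, the plexins Plxna1 and Plxna2, which signal with neuropilins, at -1.14 ± 0.30 and -0.70 ± 0.25, the reelin receptor Lrp8 at -1.11 ± 0.37, and the hyaluronan synthase Has1 at -3.53 ± 1.25, with edgeR adjusted p between 0.286 and 0.311. Itgb1, the partner chain of Itga9, was at 139.1 FPKM in light-treated and 134.6 in untreated mLECs on average.

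Of the 13 genes of blood endothelium, 12 were tested in mLECs, with 0 called between light-treated and untreated 5xFAD mice and a median of -0.07. Between untreated 5xFAD and WT, 3 of the 12 had an unadjusted p below 0.05, all lower in 5xFAD, against 3.81% of all genes, and 2 of the 12 without WT replicates 2 and 4, against 3.59%. Plvap, which forms the diaphragms of fenestrated endothelium, was at 1230 ± 336 FPKM in untreated 5xFAD and 3614 ± 1217 in WT mLECs, a log2 difference of -1.77 ± 0.42, or -2.03 ± 0.45 without WT replicates 2 and 4 (edgeR adjusted p = 1.00), and its groups did not overlap.

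In HPC, among the other lymphatic genes and the partners, 4 genes passed the thresholds between untreated 5xFAD and WT mice, all higher in 5xFAD, where 4.28% of all genes were called. On the log2 scale Thy1, whose regulatory sequence drives the transgenes, at 1.52 ± 0.14 and Fgl2 at 1.88 ± 0.43 were the 2 of 11 other lymphatic genes, and the chemokine Ccl19 at 3.32 ± 0.83 and the hyaluronan receptor Cd44 at 2.78 ± 0.76 the 2 of 9 partners, with edgeR adjusted p of at most 0.0377. Between light-treated and untreated HPC 1 of 9 valve and junction genes, the protocadherin Fat4, passed, against 0.27% of all genes, at 1.60 ± 0.30 (edgeR adjusted p = 0.0482). The macrophage sums given above lay higher in untreated 5xFAD than in WT HPC, and overlapped between light-treated and untreated HPC. The part of macrophages in these values was not tested.

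Across the 10 meninges libraries the 10 genes did not vary as a block. The 3 genes whose log2(CPM + 1), counts scaled by library size on the log scale, followed Prox1 most closely were Mier3 (Pearson r = 0.966), Gm20867 (r = 0.965) and Ccng2 (r = 0.955), out of 14318 ranked. For Lyve1 they were Dnaja1 (r = 0.814), Gnl3 (r = 0.804) and Srsf3 (r = 0.800), and for Flt4 Itga11 (r = 0.925), Stap2 (r = 0.921) and Nme4 (r = 0.908). Lyve1 had r = 0.04 with Prox1 and r = -0.50 with Flt4, and Prox1 had r = -0.29 with Flt4. The closest members were Itga9 to Prox1 (r = 0.763), Reln to Flt4 (r = 0.677) and Prox1 to Lyve1 (r = 0.04). The points share their differences in depth and in the mix of cells, and Prox1 rests on few counts, so these values describe the libraries only.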

How the data were processed

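Smart-seq2 libraries, primed with oligo-dT and amplified by PCR, were read on a NovaSeq instrument. The authors deposited, per gene, expected counts, not normalized, and FPKM values, scaled by transcript length and library size. The study's methods name fastp 0.18.0 and RSEM, whereas the submitters' processing notes name Trimmomatic, HISAT2, StringTie, DESeq2 and mm10. The aligner's role is not given in the sources used here. Positions came from the GENCODE vM21 annotation of GRCm38 (mm10).

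After rounding, edgeR 4.0.16 (R 4.3.3, TMM scaling, quasi-likelihood test) was run on the counts with the 3 groups of a tissue in 1 fit. Genes with at least 1 FPKM in at least 3 samples were tested (4 samples for WT meninges against WT HPC). P values were adjusted by Benjamini-Hochberg over all genes tested, and calls needed an adjusted p below 0.05 and a 2-fold change. SE values were derived from the log2 fold change and its F statistic. The steps were tested on simulated data. Single genes in mLECs were compared by exact permutation. The alternatives were median-of-ratios scaling, no filter, a minimum mean FPKM of 5, a fit to just the groups compared and a block for the replicate number. Others were DESeq2 1.42.0, limma 3.58.1 on log2(FPKM + 1) and log2(FPKM + 0.1), no fold threshold and leaving out each replicate. Leaving out WT replicates 2 and 4 of mLECs was chosen after seeing the data, including their low Lyve1, Pdpn and Ccl21a. All 10 genes were named, and genes of the lists where an unadjusted p was below 0.05, at most 4 per list and comparison, plus partners by name; Has1, the fifth of its list, was added after its values were seen. The listed transcription factors in HPC are not reported here. The genes and lists were chosen with earlier results of these data known. Replicates are separate mice. SE and SD values include the differences between mice.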

Additional observations from a re-analysis of the deposited data

Results flagged for a closer look

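In groups of 4 samples, a sample was looked at again when its gap to the nearest other sample, over the group's range of log2(FPKM + 1), passed Dixon's 95% critical value. Of 50 groups examined, 7 did, where chance gives about 1 in 20 for values that vary freely. In 3 of the 7, Reln and Itga9 in WT mLECs and Mmrn1 in HPC, the 3 other samples were at 0, so that the ratio is 1 by construction and that rate does not apply. In WT mLECs these were Flt4 in replicate 1 (4.01, the lowest), Reln in replicate 3 (1.10, the highest), Itga9 in replicate 4 (2.44) and Foxc2 in replicate 4 (1.42), both the highest. WT replicate 4 thus had the highest Itga9, Foxc2 and Prox1 of its group while Lyve1, Pdpn and Ccl21a were at 0. In HPC they were Reln in WT replicate 3 (1.20, the lowest), Itga9 in WT replicate 3 (0.55, the highest) and Mmrn1 in light-treated replicate 1 (0.043), which rests on 2 counts.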

How the results depend on the processing

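Number of genes called. In mLECs, with no filter on low values, 1 of the genes (Ccl21a) was called between light-treated and untreated 5xFAD mice, against 15 of 13443 genes. Between light-treated 5xFAD and WT mice 1 was called, against 44 of 13443. Both numbers were 0 with the filter. In HPC, between untreated 5xFAD and WT mice, 1 was called with no filter (Lyve1), against 682 of 20292 genes. With a mean FPKM of at least 5 it was 1 (Pdpn), against 211 of 8598. With no fold threshold it was 1 (Pdpn), where the number over all genes was not counted. When single replicates were left out it was 0 to 1, against 423 to 639 of all genes. Between WT meninges and WT HPC, leaving out single replicates gave 3 to 5 calls higher or lower in place of 6. Over all genes it gave 5249 to 6275 calls in place of 6621. The filter needs 4 samples, so a gene passing through 1 tissue alone dropped out when that tissue lost a library. The number of the 30 mLEC comparisons without overlap was 2, and 2 to 6 when replicates were left out, with 6 without light-treated replicate 2 and 4 without light-treated replicate 3 or WT replicate 1. The share over all genes without those replicates was not counted. Over all genes DESeq2 called 338, 184 and 447 in mLECs (light-treated against untreated, untreated against WT, light-treated against WT), where edgeR called 0, 0 and 1, and 72, 0 and 372 in meninges, where edgeR called 2, 0 and 2, none of them among the 10 genes.

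Direction. Of the values of single genes under the settings tried, 641 kept their direction and side of the thresholds, 5 newly passed them (Ccl21a in mLECs and Pdpn in HPC) and 54 changed sign, each of these with an adjusted p of at least 0.554. With the replicate number as a block, the log2 difference in mLECs was -0.19 for Lyve1 and 1.91 for Foxc2 between light-treated and untreated mice, and 4.2 for Lyve1 and 2.46 for Ccl21a between untreated 5xFAD and WT; in meninges, untreated against WT, it was -0.068 for Lyve1 and -0.16 for Reln. No number of genes called among the 10 changed with the block. The deviations of same-numbered samples correlated between -0.04 and 0.01 in mLECs and between -0.33 and 0.27 in meninges. For samples with other numbers the ranges were -0.04 to 0.04 and -0.35 to 0.45. No pairing by number was thus seen. Values this close to 0 in mLECs and this wide in meninges cannot exclude it. With median-of-ratios scaling or DESeq2, Nrp2 in mLECs was at -0.014 between the 5xFAD groups and Lyve1 in meninges at -0.0035 or -0.0030 between untreated 5xFAD and WT. On log2(FPKM + 1) or log2(FPKM + 0.1) with limma, untreated against WT, Lyve1 in mLECs was at 0.89 or 2.41, Ccl21a at 4.15 or 5.06, and in meninges Mmrn1 at -0.031 or -0.076 and Reln at -0.093 or -0.32; Flt4 in meninges was at 0.081 between light-treated and untreated with 0.1 added, and Nrp2 between WT meninges and WT HPC at -0.0087 or -0.013. With no filter, untreated against WT meninges, Lyve1 was at -0.030 and Mmrn1 at -0.0062, and Nrp2 between WT meninges and WT HPC at -0.10; with a mean FPKM of at least 5, Pdpn in meninges was at 0.022. Without WT replicates 2 and 4, Mmrn1 in mLECs was at -0.61.

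Single replicates. In mLECs, light-treated against untreated, the values ran from -1.08 to 12.87 for Pdpn, -0.43 to 0.54 for Nrp2 and -2.08 to 0.50 for Foxc2, and untreated against WT from -1.77 to 2.76 for Lyve1, -11.47 to 0.94 for Pdpn, -0.14 to 1.04 for Mmrn1, -1.27 to 0.62 for Ccl21a and -3.75 to 10.85 for Itga9. In meninges Flt4 ran from -0.66 to 0.64 between light-treated and untreated, and untreated against WT Lyve1 from -0.24 to 0.32, Flt4 from -0.57 to 0.73, Pdpn from -0.14 to 0.066, Mmrn1 from -0.49 to 0.35, Reln from -0.19 to 0.50 and Foxc2 from -0.59 to 0.093. The cause of these changes was not tested. Lyve1 in mLECs ran from 1.87 to 3.71 and Prox1 from 2.08 to 3.94 between the 5xFAD groups without any 1 replicate. Their groups did not overlap, so leaving out 1 replicate could hardly turn the sign. That the sign was kept is therefore no support. Prox1 in meninges rested on 17 to 58 counts per library.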
